A study of Mus musculus with 2 samples.

Results

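The 7 genes described here encode chemokine receptors: Cx3cr1, Ccr1, Ccr2, Ccr9, Cxcr2, Cxcr3 and Cxcr4. They were taken by symbol from the 32285 gene rows of a single-cell library made in 2021, and all 7 had a row and at least 1 UMI (unique molecular identifier, a tag that lets copies of a captured RNA molecule be counted once). The cells came from the thymus of adult mice, with the strain given as C57BL/6 in the sample labels and C57BL/6J in the design text. They carried no stated allele or treatment, were sorted by flow cytometry for surface CD64 (the high-affinity Fc gamma receptor I, encoded by Fcgr1), and were processed with 10x Genomics 3′ chemistry. How many mice were pooled is not given in the sources used here. A second library of the same kind, from 2024, was used for its depth only, because no list of its gene names was used here. All gene values below are therefore from 1 library. Cells are not replicates, so cell classes were not tested against each other and p-values are absent. The exact 95% intervals printed with the values cover counting error only.

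Chemokine receptors are G protein-coupled receptors that steer cell migration along gradients of small secreted proteins. Cx3cr1 binds fractalkine and is known on patrolling monocytes and many tissue macrophages. Ccr2 binds Ccl2 and its relatives and is needed for classical monocytes to leave the bone marrow. Ccr1 is an inflammatory receptor for Ccl3 and related ligands on myeloid cells. Cxcr2 binds Cxcl1 and Cxcl2 and draws neutrophils out of the marrow, against the retaining action of Cxcr4 and its ligand Cxcl12. In the thymus, Ccr9 and its epithelial ligand Ccl25 take part in the homing of progenitors and the placing of developing thymocytes, as does Cxcr4. Cxcr3 binds the interferon-induced ligands Cxcl9 and Cxcl10 and is known on activated T cells, NK cells and some plasma cells.

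The 2021 library held 8534578 UMIs in 3214 barcodes, and 3188 barcodes passed the filter (500 UMIs or more, 300 genes or more, no more than 10% of UMIs mitochondrial). The 2024 library held 24569270 UMIs in 2815 barcodes. Cells were clustered with all chemokine receptor rows left out, and clusters were named from markers that include none of the 7 receptors. The labels call the cells macrophages, but only 364 kept cells fell in the macrophage-like class. The others were 821 conventional dendritic cell (DC)-like, 487 neutrophil-like, 485 monocyte-like, 385 T lineage-like, 299 NK and innate lymphoid (ILC)-like, 212 B lineage-like and 11 basophil-like cells, with 124 in unnamed clusters. Levels are given in CPM: a gene's UMIs divided by the total of its class or cluster, times 1000000. Basophil-like cells were too few to be placed in the orders of classes below. Fcgr1 itself was at 137 CPM in macrophage-like cells, 75.1 CPM in monocyte-like cells and 2.62 CPM in neutrophil-like cells. Median depth ran from 975 UMIs in NK and ILC-like cells and 1069 in T lineage-like cells to 3296 in conventional DC-like cells. For that reason, shares of cells with a UMI are given after each cell was thinned to 2000 UMIs, leaving out shallower cells. That depth kept 726 conventional DC-like, 250 monocyte-like, 246 macrophage-like, 198 neutrophil-like, 115 T lineage-like, 83 B lineage-like and 8 NK and ILC-like cells. Thinning to 500 UMIs, which leaves out no kept cell, is given where the deeper cut removes too many. No doublets were removed.

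Across the kept cells the receptors gave 2053 UMIs for Ccr2, 1308 for Cxcr4, 869 for Cx3cr1, 291 for Ccr9, 274 for Cxcr2, 166 for Ccr1 and 44 for Cxcr3. The number of cells with a UMI was 932 for Ccr2, 832 for Cxcr4, 505 for Cx3cr1, 199 for Ccr9, 186 for Cxcr2, 139 for Ccr1 and 34 for Cxcr3. No UMI of any of the 7 was counted in 1308 cells, while 1121 cells had 1 of the receptors, 594 had 2, 144 had 3, 19 had 4 and 2 had 5. The receptors differed in how far they were concentrated in a class. A gene was called concentrated when its level in its highest class was at least 4 times that in all other kept cells together, among genes with at least 50 UMIs. By that rule 3 of the 6 receptors with enough UMIs were called, against a background of 17.0% of genes (1501 of 8815). The ratio was 38.7 for Cxcr2 in neutrophil-like cells, 20.5 for Ccr9 in T lineage-like cells and 6.91 for Ccr1 in neutrophil-like cells. It was 3.83 for Cx3cr1 and 3.20 for Ccr2, both in monocyte-like cells, and 2.71 for Cxcr4 in neutrophil-like cells. The highest class held 235 of the 274 Cxcr2 UMIs and 198 of the 291 Ccr9 UMIs, but only 86 of the 166 Ccr1 UMIs. Cx3cr1 lay just under the cut of 4. Ccr1 was thus less confined to 1 class than Cxcr2 and Ccr9, and Cx3cr1, Ccr2 and Cxcr4 were spread over several. Cxcr3, with 44 UMIs, was too sparse to enter the count.

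**Figure D1:**
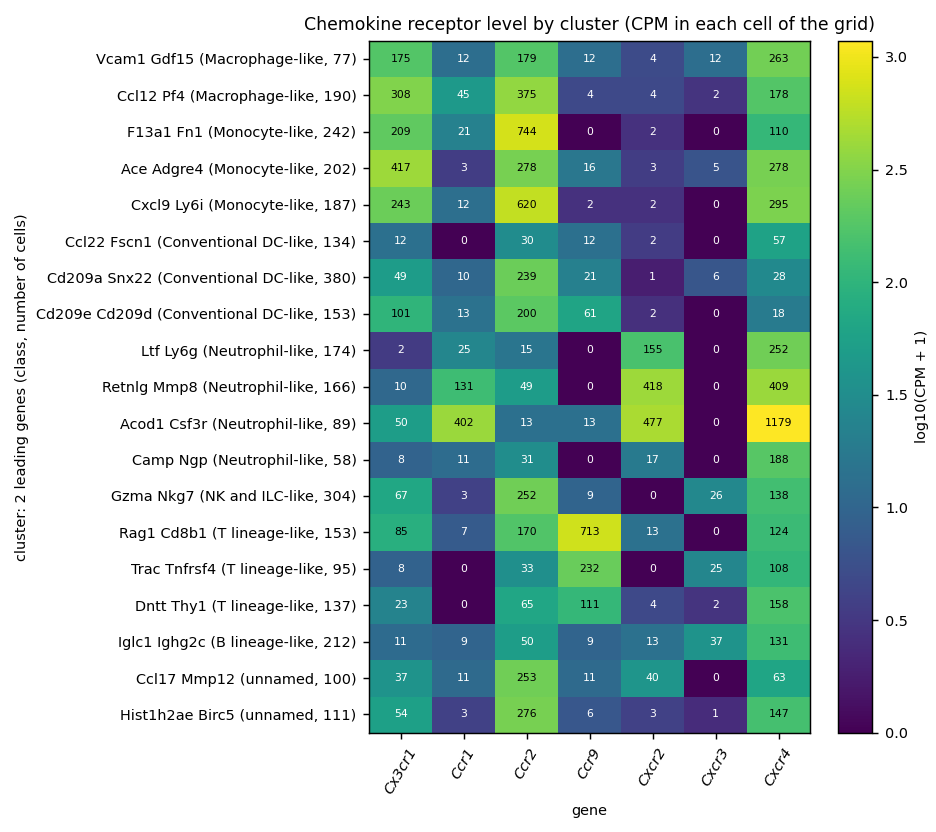
Level of each receptor (columns, in CPM, with colour as log10(CPM + 1)) in the 19 clusters of at least 50 cells (rows, named by 2 leading genes with their class and number of cells). Read down a column: Cxcr2 is at 155 to 477 CPM in 3 neutrophil-like clusters, Ccr9 reaches 713 CPM in the Rag1 Cd8b1 cluster, and Cxcr4 was counted in every row.

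Cx3cr1, the fractalkine receptor, was highest in mononuclear phagocytes. Its level was 288 CPM (256 to 321) in monocyte-like cells and 259 CPM (230 to 292) in macrophage-like cells, and these intervals overlapped. Conventional DC-like cells followed at 64.8 CPM (55.7 to 74.9), well below both. NK and ILC-like cells had 49.96 CPM (28.6 to 81.1), T lineage-like cells 33.7 CPM and B lineage-like cells 10.9 CPM. The lowest level was 9.59 CPM (4.79 to 17.2) in neutrophil-like cells, a class not known for this receptor and taken as the background. At 2000 UMIs per cell a Cx3cr1 UMI was found in 35.0% (29.0 to 41.3) of macrophage-like cells and 33.2% (27.4 to 39.4) of monocyte-like cells. The share was 9.92% (7.84 to 12.3) of conventional DC-like cells and 1.01% (0.123 to 3.60) of neutrophil-like cells. The order of the top 2 classes is not settled: macrophage-like cells were the higher of the 2 under a stricter cell filter (298 against 263 CPM) and when each cell was classed by its own markers (239 against 230 CPM).

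Ccr2, the receptor for Ccl2, had a more graded spread. Its level was 603 CPM (557 to 651) in monocyte-like cells and 370 CPM (334 to 408) in macrophage-like cells, and these intervals were apart. NK and ILC-like cells at 240 CPM (190 to 300) and conventional DC-like cells at 219 CPM (202 to 237) overlapped each other. T lineage-like cells had 81.1 CPM, B lineage-like cells 50.1 CPM (31.7 to 75.1) and neutrophil-like cells 28.8 CPM (19.8 to 40.4). B lineage-like cells were the class set as background for this gene. At 2000 UMIs a Ccr2 UMI was found in 64.4% (58.1 to 70.3) of monocyte-like, 45.1% (38.8 to 51.6) of macrophage-like and 29.2% (25.9 to 32.7) of conventional DC-like cells, against 6.02% (1.98 to 13.5) of B lineage-like cells. The equal-depth shares kept the order of the CPM. NK and ILC-like cells could be read only at 500 UMIs, where 10.7% (7.44 to 14.8) had a UMI, beside 20.4% of monocyte-like, 9.38% of conventional DC-like and 2.36% of B lineage-like cells. The NK and ILC-like level was thus above the background at equal depth. A single monocyte-like cell held 14 Ccr2 UMIs, the most of any receptor in any cell.

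**Figure D2:**
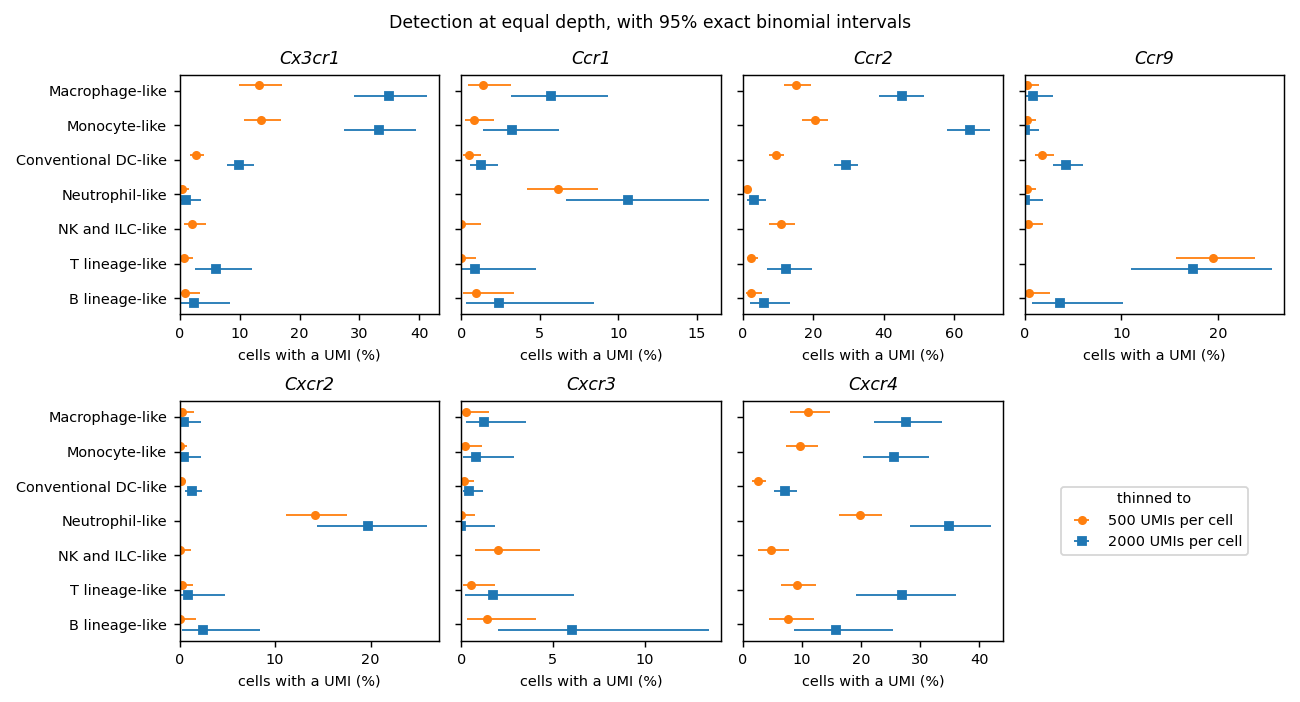
Share of cells with a UMI (x axis, percent) for each receptor and class (y axis) after thinning to 500 UMIs (circles, every kept cell) or 2000 UMIs (squares, deeper cells only), with exact 95% binomial intervals. NK and ILC-like cells have no square because 8 cells reached 2000 UMIs; Ccr2 reaches 64.4% of monocyte-like cells, and Ccr9 stands apart in T lineage-like cells at both depths.

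Within the monocyte-like class, the 2 receptors were opposed. The F13a1 Fn1 cluster (242 cells), which carries classical monocyte markers, had 744 CPM of Ccr2 (675 to 819) and 209 CPM of Cx3cr1 (173 to 250). The Ace Adgre4 cluster (202 cells), which carries nonclassical monocyte markers such as Treml4, had 278 CPM of Ccr2 (227 to 336) and 417 CPM of Cx3cr1 (354 to 487). Ccr2 was thus 2.68 times higher (2.16 to 3.35) in the classical-like cluster, and Cx3cr1 was 1.998 times higher (1.56 to 2.56) in the nonclassical-like one. Counted per cell instead of as CPM, the ratios were 3.32 and 1.61, in the same directions.

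Macrophage-like clusters also differed from each other. The Ccl12 Pf4 cluster (190 cells), rich in the complement genes C1qa, C1qb and C1qc, had 308 CPM of Cx3cr1 (263 to 359) and 375 CPM of Ccr2 (324 to 430). The Vcam1 Gdf15 cluster (77 cells), which also carries the iron-handling genes Slc40a1 and Spic, had 175 CPM of Cx3cr1 (127 to 235) and 179 CPM of Ccr2 (131 to 240). Both receptors were therefore lower in the second cluster, with intervals that do not overlap. That cluster also had the highest summed level of the 12-gene dissociation and stress list among the macrophage-like and monocyte-like clusters, at 21532 CPM against 8627 CPM in the Ccl12 Pf4 cluster. Its 12-gene neutrophil list stood at 14228 CPM against 562 CPM. The part of either in the receptor values was not tested. The Cxcl9 Ly6i cluster (187 cells) had 620 CPM of Ccr2 (558 to 688) and 243 CPM of Cx3cr1 (205 to 287), near the classical-like monocytes. This cluster was monocyte-like by its markers, but at the coarser clustering its cells fell into the macrophage-like (91), conventional DC-like (53) and monocyte-like (43) classes.

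**Figure D3:**
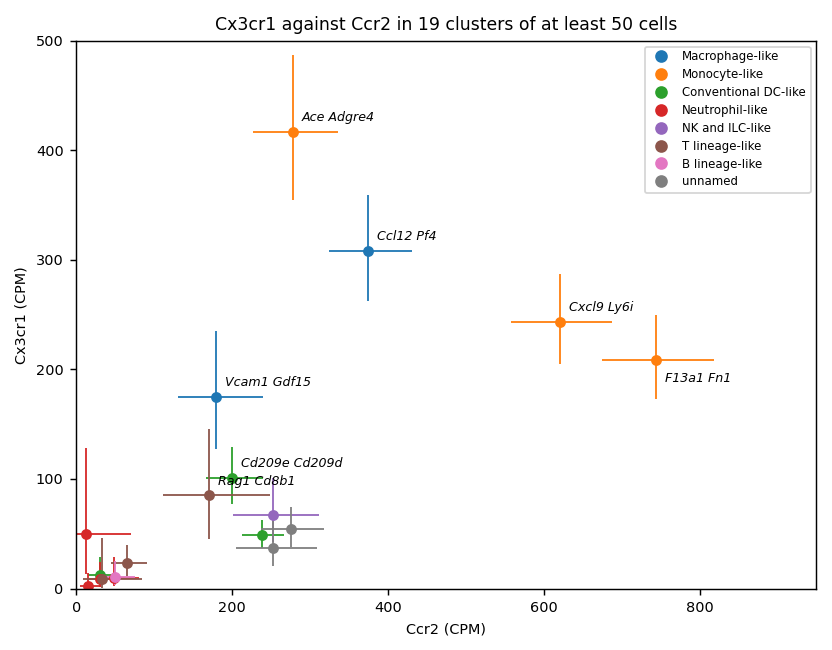
Cx3cr1 (y axis, CPM) against Ccr2 (x axis, CPM) in the 19 clusters of at least 50 cells, coloured by class, with exact 95% Poisson intervals as bars; clusters above 80 CPM of Cx3cr1 are named. The nonclassical-like cluster lies highest on Cx3cr1 (417 CPM), the classical-like cluster farthest out on Ccr2 (744 CPM), and among the T lineage, NK and B lineage-like clusters the Rag1 Cd8b1 cluster is the highest on Cx3cr1 at 85.0 CPM.

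Among DC-like clusters the same 2 receptors were low in the mature cells. The Ccl22 Fscn1 cluster (134 cells), with markers of mature DC, had 29.9 CPM of Ccr2 (15.5 to 52.3) and 12.5 CPM of Cx3cr1 (4.05 to 29.1). Each interval overlapped that of the background class for its gene. The Cd209a Snx22 cluster (380 cells) had 239 CPM of Ccr2 (212 to 267) and 48.5 CPM of Cx3cr1 (37.1 to 62.3). The Cd209e Cd209d cluster (153 cells) had 200 CPM of Ccr2 (166 to 239) and 101 CPM of Cx3cr1 (77.2 to 130), the higher Cx3cr1 of the DC-like clusters. The unnamed Ccl17 Mmp12 cluster (100 cells) had 253 CPM of Ccr2, and an unnamed cluster of 111 dividing cells had 276 CPM of Ccr2 and 54.3 CPM of Cx3cr1. Ccr2 was thus above its background in these clusters and not in the Ccl22 Fscn1 cluster.

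Whether the 2 receptors were found in the same cells was read at 2000 UMIs within each class. Among conventional DC-like cells, a Ccr2 UMI was found in 56.9% (44.7 to 68.6) of the 72 cells with a Cx3cr1 UMI and in 26.1% (22.8 to 29.7) of the 654 cells without. The intervals were apart at this depth, but overlapped at 1000 UMIs, at 29.8% (17.3 to 44.9) and 15.2% (12.7 to 18.0). Within the Cd209a Snx22 cluster alone the shares at 2000 UMIs were 63.3% (43.9 to 80.1) and 30.2% (25.1 to 35.7), also apart, and within the Cd209e Cd209d cluster 35.0% (15.4 to 59.2) and 25.6% (18.3 to 34.0), which overlapped. In monocyte-like cells they were 65.1% (53.8 to 75.2) and 64.1% (56.3 to 71.3), and in macrophage-like cells 43 of 86 (39.0 to 61.0%) and 42.5% (34.7 to 50.6), with overlapping intervals in both classes. At 1000 UMIs the monocyte-like shares were 28.2% (19.7 to 37.9) with and 38.2% (33.1 to 43.6) without a Cx3cr1 UMI, which overlapped in the other direction. Unthinned, the macrophage-like shares were 66.2% (57.5 to 74.1) and 36.8% (30.6 to 43.4), with intervals apart, but unthinned shares also follow the depth of each cell. Doublets and remaining cell mixtures within a class can also put 2 receptors in 1 barcode, and their part was not tested.

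Cxcr2, the receptor for Cxcl1 and Cxcl2, was counted almost only in neutrophil-like cells. Its level there was 205 CPM (179 to 233), with 235 of its 274 UMIs (85.8%). The next class of at least 50 cells was B lineage-like at 13.1 CPM (4.79 to 28.4), which is not known for this receptor and was taken as background. Monocyte-like cells had 1.86 CPM, macrophage-like cells 3.72 CPM, T lineage-like cells 3.74 CPM and conventional DC-like cells 6.76 CPM. In NK and ILC-like cells a Cxcr2 UMI was found in 0 of 299 cells, which allows up to 1.003% of cells with a UMI and, at this capture, sets no limit on cells that express the gene. At 2000 UMIs a Cxcr2 UMI was found in 19.7% (14.4 to 25.9) of neutrophil-like cells, against 2.41% (0.293 to 8.43) of B lineage-like cells. Of the few UMIs elsewhere, 3 were in 3 of the 11 basophil-like cells and 15 were in 9 cells of the Ccl17 Mmp12 cluster, at 39.5 CPM (22.1 to 65.2), where the neutrophil gene S100a8 was at 94.9 CPM. That was the lowest S100a8 level of the 19 clusters of at least 50 cells. The part of neutrophil RNA and of doublets in these Cxcr2 UMIs was not tested.

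Cxcr2 and Ccr1 were the 2 receptors called concentrated in neutrophil-like cells, and the 240 bases upstream of their transcripts are shown for that reason, 5′ to 3′ on the gene's strand (RefSeq, build GRCm38.p6). The Cxcr2 window is chr1:74153744-74153983 on the plus strand and the Ccr1 window chr9:123968703-123968942 on the minus strand. Capitals mark matches, on either strand, to GAGGAA (a PU.1-type core; TTCCTC on the other strand) or TGTGGT (a RUNX-type core; ACCACA on the other strand). These motifs do not share bases in either window.

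Cxcr2: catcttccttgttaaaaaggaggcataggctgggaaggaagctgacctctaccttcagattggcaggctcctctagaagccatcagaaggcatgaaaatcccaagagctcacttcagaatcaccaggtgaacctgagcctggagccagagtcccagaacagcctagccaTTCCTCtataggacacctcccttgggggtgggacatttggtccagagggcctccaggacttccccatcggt

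Ccr1: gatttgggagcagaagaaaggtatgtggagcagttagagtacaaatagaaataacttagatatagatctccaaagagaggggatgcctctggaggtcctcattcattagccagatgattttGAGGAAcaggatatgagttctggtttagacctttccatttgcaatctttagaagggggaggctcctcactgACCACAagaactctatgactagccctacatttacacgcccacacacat

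Each window held 1 match to GAGGAA, and the Ccr1 window also held 1 to TGTGGT. A match to GAGGAA is common: 22.3% of 32851 promoter windows of the same length held one, 13.6% held TGTGGT and 9.29% held TTGCNNAA, a CEBP-type core. Of the 7 receptors, only Cxcr2 and Ccr1 had GAGGAA, Cx3cr1, Ccr1 and Cxcr3 had TGTGGT, and none had TTGCNNAA in its window. These are letter matches and no binding was measured.

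Ccr1, a receptor for Ccl3, Ccl6 and Ccl9, was also highest in neutrophil-like cells. Its level was 75.0 CPM (59.96 to 92.6) in neutrophil-like cells and 30.7 CPM (21.1 to 43.1) in macrophage-like cells, with intervals apart. B lineage-like cells, taken as background, had 8.71 CPM (2.37 to 22.3), and the intervals of macrophage-like cells and of monocyte-like cells at 12.99 CPM (7.10 to 21.8) both overlapped it. Conventional DC-like cells had 8.54 CPM. T lineage-like cells had 2.50 CPM. In NK and ILC-like cells a Ccr1 UMI was likewise found in 0 of 299 cells, which allows up to 1.003% of cells with a UMI. At 2000 UMIs a Ccr1 UMI was found in 10.6% (6.69 to 15.8) of neutrophil-like and 5.69% (3.15 to 9.36) of macrophage-like cells, against 2.41% (0.293 to 8.43) of B lineage-like cells, so at that depth the intervals of all 3 overlapped. At 500 UMIs, where no cell is left out, the shares were 6.16% (4.19 to 8.68), 1.37% (0.447 to 3.18) and 0.943% (0.114 to 3.37), and the neutrophil-like share stood apart. Among macrophage-like clusters the Ccl12 Pf4 cluster had 45.4 CPM (29.1 to 67.5) and the Vcam1 Gdf15 cluster 11.9 CPM (2.46 to 34.9), which overlap. The Ccr1 level in neutrophil-like cells depends on which cells are kept and how they are weighted. The stricter cell filter asks for 1000 UMIs, 500 genes and at most 5% mitochondrial UMIs. Under it the level was 37.6 CPM, beside 32.6 CPM in macrophage-like cells. As a mean of per-cell values the neutrophil-like level was 147 CPM.

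The neutrophil-like class was made of 4 clusters that differ in granule genes, and all 3 neutrophil receptors varied across them. The Camp Ngp cluster (58 cells, median 6231 UMIs) and the Ltf Ly6g cluster (174 cells, 2124.5 UMIs) carry granule genes of immature neutrophils. The Retnlg Mmp8 cluster (166 cells, 1641.5 UMIs) and the Acod1 Csf3r cluster (89 cells, 756 UMIs) carry genes of mature and of activated ones. Thinning to 2000 UMIs kept 54, 93, 49 and 2 of their cells, in the order named. The neutrophil-like shares at that depth, for Cxcr2, Ccr1 and Cxcr4, thus held almost no Acod1 Csf3r cells. Cxcr2 stood, in that order, at 16.8 CPM (6.18 to 36.7), 155 CPM (119 to 199), 418 CPM (349 to 498) and 477 CPM (337 to 654). The last pair overlapped and the other steps did not. Ccr1 stood at 11.2, 24.7, 131 and 402 CPM, with the Retnlg Mmp8 cluster (93.4 to 178) and the Acod1 Csf3r cluster (275 to 567) apart from each other and from the first pair. The ratio of the Acod1 Csf3r to the Camp Ngp cluster was 28.3 for Cxcr2 (11.9 to 81.9) and 35.7 for Ccr1 (12.7 to 139). Counted as UMIs per cell these ratios were 4.13 and 5.21, in the same direction, since cells of the Camp Ngp cluster held far more UMIs.

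Cxcr4, the receptor for Cxcl12, gave another picture in the same clusters. It stood at 188 CPM (146 to 239) in the Camp Ngp, 252 CPM (205 to 305) in the Ltf Ly6g, 409 CPM (340 to 487) in the Retnlg Mmp8 and 1179 CPM (953 to 1443) in the Acod1 Csf3r cluster. The last was the highest level of Cxcr4 in any cluster, and at 500 UMIs 40.4% (30.2 to 51.4) of its cells had a Cxcr4 UMI. As a share of UMIs, Cxcr4 was 6.27 times higher (4.53 to 8.71) in the Acod1 Csf3r than in the Camp Ngp cluster. As UMIs per cell the values were 1.16 (0.895 to 1.47), 0.586, 0.753 and 1.06 (0.854 to 1.29) in the 4 clusters, and the first and last overlapped, with a ratio of 0.914. A Cxcr4 difference between these 2 clusters was thus seen as a share of UMIs and not per cell. For Cxcr2, at 0.103 (0.0380 to 0.225) and 0.427 (0.302 to 0.586) UMIs per cell, and for Ccr1, at 0.0690 (0.0188 to 0.177) and 0.360 (0.246 to 0.508), the per-cell intervals were apart. Other quantities moved with the clusters. S100a8 and S100a9 together took 39.1% and 40.1% of all UMIs in the Camp Ngp and Ltf Ly6g clusters, 37.1% in the Retnlg Mmp8 and 13.7% in the Acod1 Csf3r cluster, and with both left out of the totals the Cxcr4 ratio was 4.42. The 12-gene stress list stood at 963, 1416, 3818 and 12121 CPM in the same order. The part of the stress list in the receptor values was not tested.

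**Figure D4:**
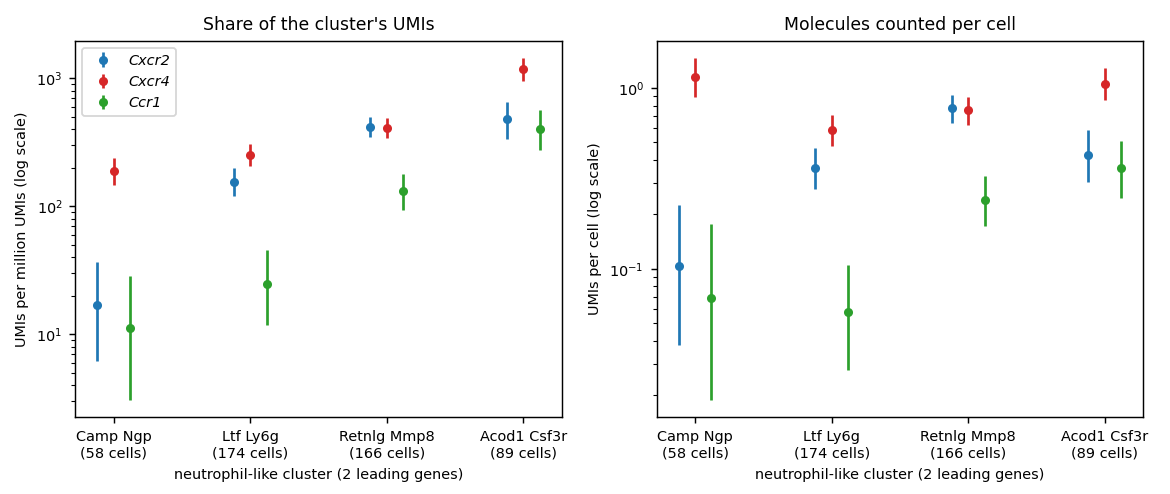
Cxcr2, Cxcr4 and Ccr1 in the 4 neutrophil-like clusters (x axis, 2 leading genes and number of cells), as CPM (left, log scale) and as UMIs per cell (right, log scale), with exact 95% Poisson intervals. On the left all 3 are highest in the Acod1 Csf3r cluster; on the right Cxcr4 is about as high in the Camp Ngp cluster (1.16 UMIs per cell) as in the Acod1 Csf3r cluster (1.06), while Cxcr2 is highest in the Retnlg Mmp8 cluster.

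Cxcr4 was the most widely spread of the 7. By class its level was 338 CPM (305 to 374) in neutrophil-like, 242 CPM (213 to 273) in macrophage-like and 195 CPM (169 to 223) in monocyte-like cells. T lineage-like cells at 145 CPM (120 to 174), B lineage-like cells at 131 CPM (99.7 to 168) and NK and ILC-like cells at 122 CPM (86.6 to 166) overlapped one another. Conventional DC-like cells were lowest at 45.6 CPM (38.0 to 54.2), apart from every other class. At 2000 UMIs the shares were 34.8% (28.2 to 41.9) of neutrophil-like, 27.6% of macrophage-like, 27.0% of T lineage-like, 25.6% of monocyte-like and 15.7% (8.61 to 25.3) of B lineage-like cells, and 7.02% (5.27 to 9.13) of conventional DC-like cells. No class serves as a blank for this gene. The neutrophil-like level was 571 CPM with median-of-ratios scaling and 538 CPM with S100a8 and S100a9 left out of the totals, and the class was the highest under each. Under the stricter filter it was 255 CPM, beside 232 CPM in macrophage-like cells.

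Cxcr4 also differed within the monocyte-like class. It was 278 CPM (227 to 336) in the nonclassical-like Ace Adgre4 cluster and 110 CPM (84.0 to 140) in the classical-like F13a1 Fn1 cluster, so that it lay on the side of Cx3cr1 and opposite to Ccr2. The Cxcl9 Ly6i cluster had 295 CPM (253 to 343). The Vcam1 Gdf15 macrophage-like cluster had 263 CPM (203 to 334) and the Ccl12 Pf4 cluster 178 CPM (144 to 218). In the DC-like clusters Cxcr4 stood at 57.3 CPM in the Ccl22 Fscn1, 27.8 CPM in the Cd209a Snx22 and 18.2 CPM in the Cd209e Cd209d cluster. Of the clusters of at least 50 cells, the lowest for Cxcr4 were thus all DC-like or, at 63.3 CPM, the unnamed Ccl17 Mmp12 cluster. Within neutrophil-like cells at 2000 UMIs, a Cxcr4 UMI was found in 48.7% (32.4 to 65.2) of the 39 cells with a Cxcr2 UMI and in 31.4% (24.3 to 39.3) of the 159 cells without, and these intervals overlapped. That depth kept 2 of the 89 Acod1 Csf3r cells, so these shares describe the other neutrophil-like clusters.

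Ccr9, the receptor for Ccl25, was highest, among the named classes, in T lineage-like cells. Its level there was 247 CPM (214 to 284), with 198 of its 291 UMIs (68.0%). Conventional DC-like cells came next at 26.0 CPM (20.4 to 32.7) with 73 UMIs, apart from the T lineage-like level. All other named classes of at least 50 cells were below 10 CPM, and neutrophil-like cells, taken as background, had 0.872 CPM from 1 UMI. Plasmacytoid DC did not form a named class. The 9 kept cells with 4 or more plasmacytoid DC markers had 117 CPM (32.0 to 301), from 4 UMIs in 2 cells. That interval overlapped the T lineage-like one, so these few cells cannot be ranked against it. At 500 UMIs a Ccr9 UMI was found in 19.5% (15.6 to 23.8) of T lineage-like, 1.83% (1.03 to 2.996) of conventional DC-like and 0.205% (0.00520 to 1.14) of neutrophil-like cells. At 2000 UMIs, which leaves out 270 of the 385 T lineage-like cells, the shares were 17.4% (10.96 to 25.6), 4.27% (2.92 to 6.01) and 0. The unthinned T lineage-like share was 33.0% (28.3 to 37.9). The T lineage-like level depends on which cells are kept: it was 126 CPM under the stricter filter, beside 49.4 CPM in conventional DC-like cells, and 554 CPM as a mean of per-cell values, so the shallower cells carried the higher share of Ccr9.

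The T lineage-like clusters separated clearly. The Rag1 Cd8b1 cluster (153 cells, median 617 UMIs), which carries recombination genes and both coreceptor genes, had 713 CPM (585 to 860) and a Ccr9 UMI in 34.0% (26.5 to 42.1) of cells at 500 UMIs. The Trac Tnfrsf4 cluster (95 cells), with Icos and Ctla4 among its leading genes, had 232 CPM (154 to 335) and 14.7% (8.30 to 23.5). The Dntt Thy1 cluster (137 cells, median 2681 UMIs), of early or dividing thymocytes by its genes, had 111 CPM (84.0 to 143) and 7.30% (3.56 to 13.01). All 3 levels had intervals apart from one another. Per cell the Rag1 Cd8b1 cluster had 0.712, the Dntt Thy1 cluster 0.423 and the Trac Tnfrsf4 cluster 0.295 UMIs, so the Rag1 Cd8b1 cluster was highest on both scales and the order of the other 2 turned.

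Receptors other than Ccr9 were also counted in the Rag1 Cd8b1 cluster. It had 170 CPM of Ccr2 (111 to 249) from 11 cells and 85.0 CPM of Cx3cr1 (45.3 to 145) from 7 cells. In the same cluster the myeloid gene Lyz2 stood at 1857 CPM and the MHC class II chain gene Cd74 at 6958 CPM. The part of RNA from other cells in these receptor values, and that of doublets, was not tested. Like all cells here, those of this cluster had been sorted for CD64, a myeloid surface protein.

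Of the 73 Ccr9 UMIs of conventional DC-like cells, 37 were in the Cd209e Cd209d cluster, in 27 of the 54 cells with one, at 61.2 CPM (43.1 to 84.3). The Cd209a Snx22 cluster had 20.7 CPM (13.5 to 30.3) and the Ccl22 Fscn1 cluster 12.5 CPM (4.05 to 29.1), both below it. Trac, the T cell receptor alpha constant gene, was at 3.31 CPM in the Cd209e Cd209d cluster, against 713 CPM in the Rag1 Cd8b1 cluster. The part of T lineage RNA and of doublets in the DC-like Ccr9 values was not tested.

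Cxcr3, the receptor for Cxcl9 and Cxcl10, was the rarest of the 7, with 44 UMIs in 34 cells. B lineage-like cells had 37.0 CPM (21.6 to 59.3) from 17 UMIs in 9 cells, and NK and ILC-like cells 28.1 CPM (12.9 to 53.3) from 9 UMIs in 9 cells. These overlapped, and both were higher than the T lineage-like cells as a class, at 4.99 CPM (1.36 to 12.8). The NK and ILC-like interval cleared the T lineage-like one only barely. A Cxcr3 UMI was found in 0 of 487 neutrophil-like cells, which allows up to 0.616% of cells with a UMI and sets no limit on cells that express the gene. At 500 UMIs the share was 2.01% (0.740 to 4.32) of NK and ILC-like and 1.42% (0.293 to 4.08) of B lineage-like cells. The B lineage-like value rests on few cells, 1 of them with 8 UMIs, and as a mean of per-cell values it was 19.4 CPM, below the 28.4 CPM of NK and ILC-like cells.

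A split of the B lineage-like cells made after seeing the data places most of these UMIs. Of the 17 UMIs, 10 were in 3 of the 10 cells with plasma cell markers, at 148 CPM (70.9 to 272), and 6 were in 5 of the 151 cells with B cell markers, at 19.9 CPM (7.29 to 43.2). Cxcr4 ran the other way, with 1 UMI in the plasma-marker cells, at 14.8 CPM (0.375 to 82.4), and 172 CPM (129 to 226) in the B-marker cells. Of the 10 Cxcr3 UMIs in plasma-marker cells, 8 were in 1 cell, so that the level and its interval rest on that cell and the 2 sets cannot be compared for Cxcr3. Among T lineage-like clusters the Trac Tnfrsf4 cluster had 24.8 CPM of Cxcr3 (5.12 to 72.6) from 3 UMIs, an interval that overlapped those of B lineage-like and NK and ILC-like cells.

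The other receptors of the family give the setting. Of 17 further chemokine receptor rows, 15 had at least 1 UMI, Ackr2 and Ackr4 had none, and 3 had at least 100. Ccr7, which guides mature DC and T cells to lymphoid tissue, had 718 UMIs and stood at 1466 CPM in the Ccl22 Fscn1 cluster, the cluster in which Ccr2 and Cx3cr1 were near background. Ccrl2, an atypical receptor that binds chemerin, had 403 UMIs. As CPM it was highest in the Acod1 Csf3r neutrophil-like cluster at 427 CPM, where Cxcr4 and Ccr1 were also highest as CPM. Counted as molecules, that was 34 Ccrl2 UMIs in 89 cells, beside 37 in the 100 cells of the Ccl17 Mmp12 cluster.

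Ligands of the 7 receptors were counted in the same cells. Of 20 listed ligands 19 had a row under the symbol used, 17 had a UMI and 12 had at least 100. For Ccr1, Ccl5 was the most abundant with 12610 UMIs, and stood at 29126.5 CPM in NK and ILC-like cells. Ccl3 and Ccl4 were highest, among clusters of at least 50 cells, in the Acod1 Csf3r neutrophil-like cluster, at 2246 and 2785 CPM. For Ccr2, the 4 listed ligands Ccl2, Ccl7, Ccl8 and Ccl12 were highest in macrophage-like cells, at 166, 87.4, 150 and 409 CPM. For Cxcr2, Cxcl2 was highest by cluster in the Acod1 Csf3r cells at 4693 CPM, so that receptor and ligand RNA were both high in 1 cluster, while Cxcl5 and Ppbp had no UMI. For Cxcr3, Cxcl9 and Cxcl10 stood at 372 and 431 CPM in the Cxcl9 Ly6i cluster, which had no Cxcr3 UMI. The ligands of the other 3 receptors were nearly absent: 11 UMIs of Cx3cl1, 43 of Ccl25 and 1 of Cxcl12. Of the Cx3cl1 UMIs, 10 were in conventional DC-like cells. These ligands are known mainly from stromal, endothelial and epithelial cells. The 6-gene fibroblast list was at 0 CPM in all named classes of at least 50 cells except neutrophil-like cells, at 1.74 CPM. Levels of endothelial and epithelial lists are not given here, and the part of absent source cells in these ligand counts was not tested.

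**Figure D5:**
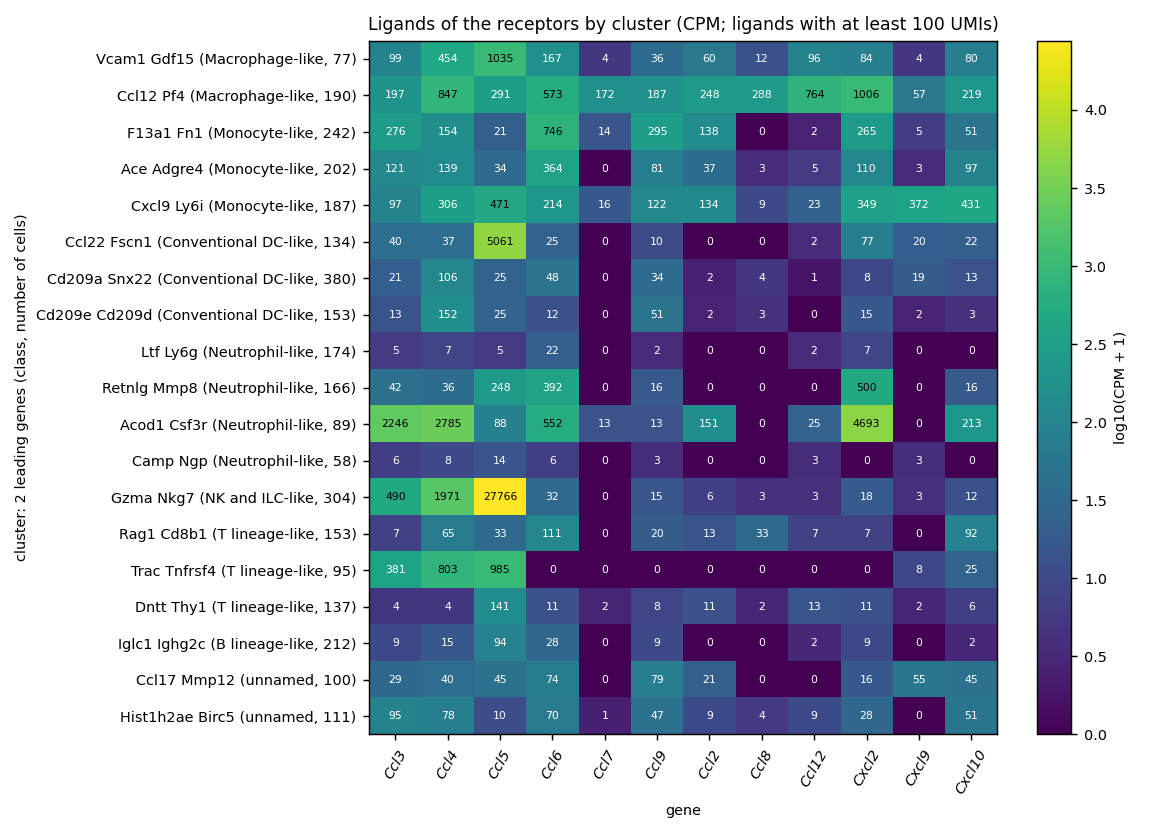
Level of the 12 ligands with at least 100 UMIs (columns, CPM, with colour as log10(CPM + 1)) in the 19 clusters of at least 50 cells (rows, named by 2 leading genes with their class and number of cells). Ccl2, Ccl7, Ccl8 and Ccl12 are highest in the Ccl12 Pf4 macrophage-like row, and Cxcl2 reaches 4693 CPM in the Acod1 Csf3r neutrophil-like row.

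Genes that act downstream of these receptors were measured too, and all 11 listed had UMIs. Gnai2, the main inhibitory G protein subunit of leukocytes, was present in every class, from 429 CPM in B lineage-like to 814 CPM in monocyte-like cells. Arrb2, an arrestin that uncouples and internalises the receptors, was highest in neutrophil-like cells at 269 CPM, next to 101 CPM in macrophage-like cells. Rgs1, which shortens G protein signals, stood at 799 CPM in macrophage-like and 11.3 CPM in neutrophil-like cells. By cluster it was at 1727 CPM in the Vcam1 Gdf15, 647 CPM in the Ccl12 Pf4 and 997 CPM in the DC-like Ccl22 Fscn1 cluster. Rgs1 and Arrb2 thus ran in opposite order between neutrophil-like and macrophage-like cells. Values of the other listed regulators are not given here.

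The genes whose pattern was most like that of each receptor were taken over the 19 clusters, by Pearson r of log2(CPM + 10) among 6456 genes with at least 100 UMIs. These clusters share 1 library and were formed with the same genes, so r is a description. Cx3cr1 was most like Ehd4 (r = 0.944), Csf1r (0.914), the receptor for the macrophage growth factor, Fam174a, Clec4a1 and Zeb2. Ccr2 was most like Ms4a6c (0.884), Ehd4, Tifab, Ccl9 and Gnptab. Cxcr2 was most like Il1f9 (0.947), Trem1 (0.944), Il1r2, Pdlim7 and Trim30b. Ccr1 was most like Clec4d (0.891), Ifitm1, Cd300lf, Csf3r, the G-CSF receptor, and Lilr4b. Ccr9 was most like Cd8b1 (0.935), Rmnd5a, Zfp664, Bcl11b and Gtf2h4. Cxcr3 was most like 3 Gimap genes, led by Gimap4 (0.945), and S1pr1 and Cd2. Cxcr4 was most like Adipor1 (0.865), Clec4e, Cd300lf and Arhgef3, the lowest top value of the 7. Between the receptors themselves, r was 0.817 for Ccr1 and Cxcr2, 0.814 for Cx3cr1 and Ccr2, and 0.61 for Cxcr4 with each of Ccr1 and Cxcr2. Ccr9 and Cxcr3 reached no more than 0.14 with any of the other receptors.

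In the GENCODE annotation of GRCm38, the same assembly as mm10, 4 of the genes lie on chromosome 9. These are Cx3cr1 (chr9:119901616-120069879, minus strand), Ccr9 (chr9:123678439-123784330, plus), Ccr1 (chr9:123962124-123968692, minus) and Ccr2 (chr9:124101950-124113557, plus). Cxcr2 (chr1:74153989-74161246, plus) and Cxcr4 (chr1:128588199-128592293, minus) lie on chromosome 1, and Cxcr3 (chrX:101731535-101734269, minus) on chromosome X. All 7 are protein-coding. The closest neighbours on chromosome 9 did not share a highest class: Ccr9, Ccr1 and Ccr2 were highest in T lineage-like, neutrophil-like and monocyte-like cells. Cx3cr1, farther away on that chromosome, was like Ccr2 highest in monocyte-like cells in the main setting, with r = 0.814 between them over clusters. Stretches of 31 bases shared with transcripts of other genes made up 7.70% of those of Cxcr2 and 3.41% of those of Ccr2. They made up 3.12% for Ccr9, 1.75% for Cx3cr1, 0.642% for Ccr1 and 0 for Cxcr3 and Cxcr4. The Cx3cr1 and Ccr9 models overlap other genes on both strands, so counts there can depend on how overlapping reads were assigned, which is not given in the sources used here.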

How the data were processed

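Each library was deposited by its authors as a matrix of raw UMI counts. Per the file headers, the matrices come from Cell Ranger 6.0.0 (2021) and 8.0.0 (2024), and the submitters' processing notes name the build mm10. Whether intronic reads were counted is not given in the sources used here. Only the 2021 counts were used for genes. Barcodes with at least 500 UMIs, 300 genes and at most 10% mitochondrial UMIs were kept (3188 of 3214). Scrublet marked 3 cells (0.0941%), and none were removed.

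With scanpy 1.11.5 and igraph 0.11.9 (Python 3.11.15, numpy 2.4.6, scipy 1.17.1, pandas 2.3.3), counts were scaled to 10000 per cell, 2000 variable genes without chemokine receptors and 30 principal components were computed, and cells were grouped by the Leiden method with 15 neighbours at resolution 0.5 (classes) and 1.0 (clusters, where given by 2 leading genes). A class name needed at least 3 of its markers raised by a log2 ratio of at least 1 over all other cells (10 CPM added to both sides, at least 3 UMIs), and its own markers not outnumbered by those of another class in the 10 leading genes. A cluster at under the median depth divided by 3 also needed a marker of its own there. Levels are summed UMIs per 1000000 UMIs of the class, with exact Poisson intervals. Shares come from 1 seeded draw per cell, with exact (Clopper-Pearson) binomial intervals. A count of 0 was taken to allow up to 3 counts. Genes named beyond the 7 are fixed lists of other receptors, ligands and regulators, plus the 5 genes most like each receptor. Other receptors are named with values at 100 UMIs or more. Of the genes these rules name, 2 are not reported here. The members and lists were chosen with earlier results of these data known. The steps for class concentration and likeness were tested on simulated data. Thinning was checked on part of the kept cells, only for reaching the set depth. Clustering and naming were not tested. Promoter windows are from RefSeq and gene models from GENCODE, matched by symbol for all 7 receptors.

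Alternatives changed the cell filter, doublet removal, clustering resolution, receptors in clustering, classing per cell, scaling, thinning depth and thresholds. Thinning to 500 UMIs, leaving out S100a8 and S100a9 and the ratios between clusters were added after seeing the data. The 2 libraries share no gene list here, so shared barcodes and leaving out a library were not analysed.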

Additional observations from a re-analysis of the deposited data

How the results depend on the processing

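The class with the highest level was the same in 10 of 10 settings for Ccr1, Ccr2, Ccr9, Cxcr2 and Cxcr4, in 8 for Cx3cr1 and in 9 for Cxcr3. Of the alternatives to values that answer a comparison, 135 stayed within the spread of the value or count, 50 moved and 1 reversed; the cause was not tested where no construction shows it. With the stricter filter the levels were 37.6 CPM (Ccr1), 126 (Ccr9), 158 (Cxcr2) and 255 (Cxcr4). With classes per cell they were 230 (Cx3cr1), 517 (Ccr2), 172 (Cxcr2) and 294 (Cxcr4), and the Ccr2 share was 57.4%. As means of per-cell CPM they were 326 (Cx3cr1), 147 (Ccr1), 554 (Ccr9), 344 (Cxcr2), 19.4 (Cxcr3) and 563 (Cxcr4). Median-of-ratios scaling, which moved class factors by -0.76 (neutrophil-like), 0.54 (T lineage-like), 0.22 (macrophage-like), 0.15 (NK and ILC-like) and -0.11 (B lineage-like) on the log2 scale, gave 127 (Ccr1), 170 (Ccr9), 346 (Cxcr2) and 571 (Cxcr4). Without S100a8 and S100a9, Ccr1 was 119, Cxcr2 326 and Cxcr4 538. In the same cells fewer UMIs give lower shares by construction, but the set of cells kept also changes with depth, so shares can move either way. At 1000 UMIs Cx3cr1 was 22.8%, Ccr2 35.9% and Cxcr4 23.9%. At 500 UMIs Cx3cr1 was 13.6%, Ccr1 6.16%, Ccr2 20.4%, Cxcr2 14.2%, Cxcr3 1.42% and Cxcr4 19.7%. At 3000 UMIs Ccr1 was 2.63% and Ccr2 72.7%; unthinned, Ccr2 was 55.1%, Ccr9 33.0%, Cxcr2 32.4% and Cxcr4 50.3%. The share of Cx3cr1 cells with Ccr2 at 1000 UMIs was 29.8% (conventional DC-like), 28.2% (monocyte-like) and 32.8% (macrophage-like), against 15.2%, 38.2% and 27.1% without a Cx3cr1 UMI, and unthinned 52.4% against 56.8% and 66.2% against 36.8% for the last 2. Genes called concentrated numbered 5189 at 2 times, 582 at 8 times, 2319 from 20 UMIs and 5487 from 1 UMI. As UMIs per cell the ratios between neutrophil-like clusters were 4.13 (Cxcr2), 5.21 (Ccr1) and 0.914 (Cxcr4, below 1, with overlapping per-cell intervals); without S100a8 and S100a9 the Cxcr4 ratio was 4.42. The Ccr2 ratio between monocyte-like clusters was 3.50 as means of per-cell CPM. Of the 5 genes most like a receptor, 1 to 3 were shared with log2(CPM + 1), 3 to 5 from 50 UMIs and 0 to 3 with Spearman. No paired analysis was possible because gene names were used for 1 library only, and no library could be left out in turn. All values rest on 1 library.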
